A study of Mus musculus with 126 samples.

Results

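Of 126 F2 males of the TRAMP × NOD/ShiLtJ intercross with an arrayed prostate tumor, the 48 described here were selected on measured values of the tumor, 24 with the highest and 24 with the lowest Mki67 signal among 99 tumors with little desmoplakin (Dsp). Tumors were kept when log2 Dsp was under 7, were ranked by log2 Mki67, and the 24 highest (Mki67-high) were set against the 24 lowest (Mki67-low). The remaining 51 tumors with low Dsp formed the middle group, and 27 tumors had a Dsp of 7 or more. Every male carried the TRAMP transgene, in which a prostate epithelial promoter drives SV40 T antigen, on a mixed C57BL/6 and NOD/ShiLtJ background that differs from male to male. Each tumor came from another male and was measured once on an Affymetrix Mouse Gene ST array, so that a value per tumor holds both the spread between animals and that of the assay. Males were kept until humane endpoints or the age limit of the study, and an age per male is not used here. The Mki67-high group held 18 males with and 6 without distant metastasis, and the Mki67-low group 19 with and 5 without. Tumors were arrayed whole, and in such samples fewer cells of a type and less RNA per cell cannot be told apart.

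Mki67 encodes the Ki-67 protein, which coats chromosomes in mitosis and is made by cycling cells and lost by resting ones. The mRNA of Mki67 and of many other mitosis genes is held down early in the cycle by the DREAM complex of pocket proteins, E2F and MuvB, and is switched on late by B-Myb and FoxM1, often through promoter elements called CHR and CCAAT. SV40 T antigen binds the pocket proteins and p53, and TRAMP males develop neuroendocrine prostate tumors with a high rate of division.

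The values that chose the groups covered a narrow range. Log2 Mki67 ran from 11.78 through a median of 11.83 to 12.16 in Mki67-high tumors, and from 11.34 through a median of 11.56 to 11.62 in Mki67-low tumors. The means were 11.86 ± 0.10 in Mki67-high and 11.55 ± 0.08 in Mki67-low tumors (SD, n = 24 each), a difference of 0.32, or 1.25-fold. The rank left little room at its edges, since the lowest Mki67-high tumor was at 11.776 and the next tumor below it at 11.775, while the highest Mki67-low tumor was at 11.622 and the next above it at 11.626. At the Dsp limit the tumors just inside and just outside were at 6.94 and 7.00. Over all 99 tumors with low Dsp the SD of Mki67 was 0.13, and none was under 11.34, whereas the 27 tumors with a Dsp of 7 or more reached down to 9.74.

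**Figure D1:**
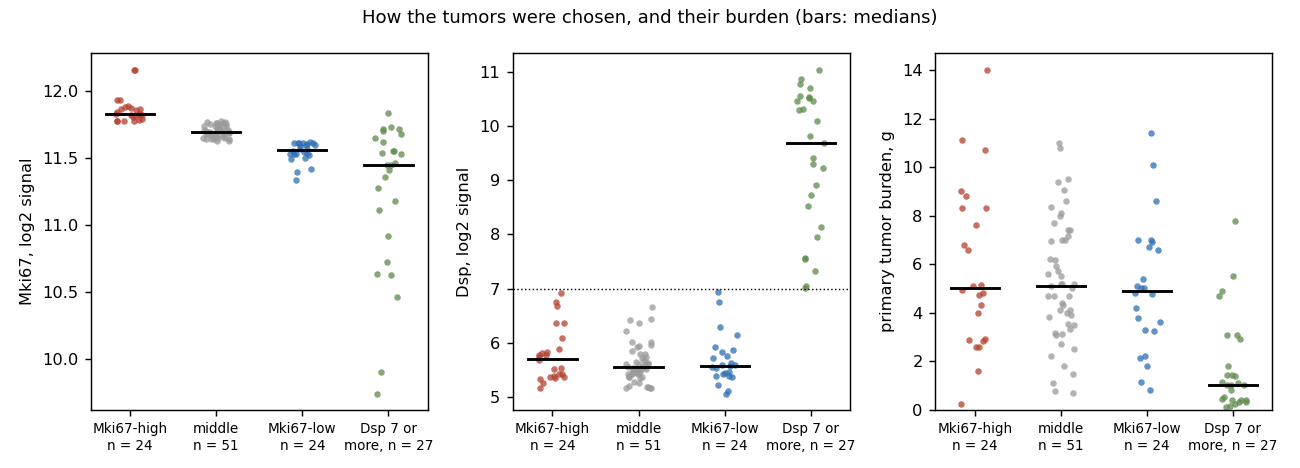
Log2 signal of Mki67 (left) and of Dsp (middle) and primary tumor burden in g (right) in each of 126 tumors, as points by group, with bars at the group medians. The Mki67-high and Mki67-low tumors differ by construction in Mki67, with medians of 11.83 and 11.56, and overlap in burden, with medians of 5.01 g and 4.90 g, while the dotted line marks the Dsp limit of 7.

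The label of neuroendocrine tumors was checked against its markers. The mean log2 level over 28 neuroendocrine genes was 8.49 ± 0.12 in Mki67-high and 8.51 ± 0.18 in Mki67-low tumors, against 7.85 ± 1.02 in the 27 tumors with a Dsp of 7 or more (SD). Those 27 ran from 5.967 through a median of 8.284 to 8.935 and overlapped both groups, whose medians were 8.475 in Mki67-high and 8.518 in Mki67-low tumors. The level thus did not set every chosen tumor apart from the 27. Chga, which encodes the granule protein chromogranin A, had medians of 10.83 in Mki67-high and 10.82 in Mki67-low tumors, and Syp, the synaptic vesicle protein synaptophysin, 8.84 and 8.79. Group medians of both genes lay well within the range of either group, and none of the 28 neuroendocrine genes passed the test. The label of fast and slow cycling rests on Mki67 alone. Of 48 DNA replication genes none passed the test, which is close to the 0.448% of all probe sets that rose. Differences were above 0 for 38 of these 48, against 45.4% of all probe sets. Of 80 mitosis and spindle checkpoint genes 10 rose and 79 were above 0. The groups are called here by their Mki67 rank.

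Genome-wide, few genes differed between the Mki67-high and Mki67-low tumors, and most that did were higher in Mki67-high tumors. Of 21882 probe sets tested, 121 (0.553%) passed an adjusted p of 0.05 in limma, 98 (0.448%) higher and 23 (0.105%) lower in Mki67-high tumors, while 2772 had an unadjusted p under 0.05. The median difference over all probe sets tested was −0.01 on the log2 scale. Changes were small, with a median size of 0.32 among those that passed, and only Olfm4, Lef1 and Islr moved by more than 1. The call set depends on how many tumors are taken at each end: 49 tumors at each end gave 48 calls and 12 at each end gave 1. After another quantile normalization 79 passed, 56 higher and 23 lower, and with arrays centred on their medians 115 passed, 103 higher and 12 lower.

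The genes that rose most came from several classes. Kif20b, a kinesin of cytokinesis on chromosome 19, ran from 8.25 through a median of 9.25 to 9.65 in Mki67-high tumors and from 7.71 through 8.47 to 9.25 in Mki67-low tumors. No Mki67-low tumor reached above the Mki67-high median, although the groups overlapped. Its difference was 0.65 ± 0.11 on the log2 scale (SE, limma adjusted p = 0.00163). Slc26a5, which encodes the anion transporter-like motor protein prestin, ran from 5.19 through 5.99 to 6.62 in Mki67-high and from 4.87 through 5.29 to 5.95 in Mki67-low tumors. It rose by 0.57 ± 0.09 (adjusted p = 0.00157), also with no Mki67-low tumor above the Mki67-high median. Gabrq, a GABA-A receptor subunit, and Pbx3, a homeodomain factor, had the largest rises, of 0.81 ± 0.20 (adjusted p = 0.0478) and 0.77 ± 0.19 (adjusted p = 0.0461), close to the threshold. Zcwpw1, a reader of histone methylation known from meiosis, rose by 0.72, Vldlr, a lipoprotein receptor, by 0.68, and Slc7a3, a transporter of cationic amino acids, by 0.65. Mamstr, a coactivator of MEF2 factors, rose by 0.60, Cep55, a protein of abscission, by 0.55, and Fkbp2, a prolyl isomerase of the endoplasmic reticulum, by 0.54.

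The genes that fell most were fewer, and several are known for cell surface or signalling roles. Lef1, a transcription factor of Wnt signalling, ran from 5.43 through 6.90 to 9.29 in Mki67-high tumors and from 6.48 through 8.45 to 9.71 in Mki67-low tumors. The groups overlapped widely, with 2 Mki67-high tumors above the Mki67-low median, and the difference was −1.20 ± 0.27 (adjusted p = 0.0196). Olfm4, a secreted glycoprotein, ran from 5.59 through 7.02 to 8.59 in Mki67-high and from 5.83 through 8.16 to 11.06 in Mki67-low tumors, a difference of −1.20 ± 0.30 (adjusted p = 0.049). Olfm4, Islr and Mamstr each passed in 6 of 29 alternative settings, Gabrq in 12 and Pbx3 in 13. Gpr153, an orphan receptor, had the smallest adjusted p of the falls. It ran from 5.69 through 6.53 to 7.05 in Mki67-high and from 6.44 through 6.92 to 7.497 in Mki67-low tumors, with a difference of −0.50 ± 0.09 (adjusted p = 0.00163). Islr, an immunoglobulin and leucine-rich repeat protein of mesenchymal cells, differed by −1.02, Robo2, a receptor for Slit proteins, by −0.96, and Pdpn, the membrane glycoprotein podoplanin, by −0.71. Colgalt2, a collagen galactosyltransferase, differed by −0.68, Mettl24, a methyltransferase-like gene, by −0.64, B4galt4, a galactosyltransferase, by −0.53, and Pth1r, the receptor of parathyroid hormone, by −0.46.

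**Figure D2:**
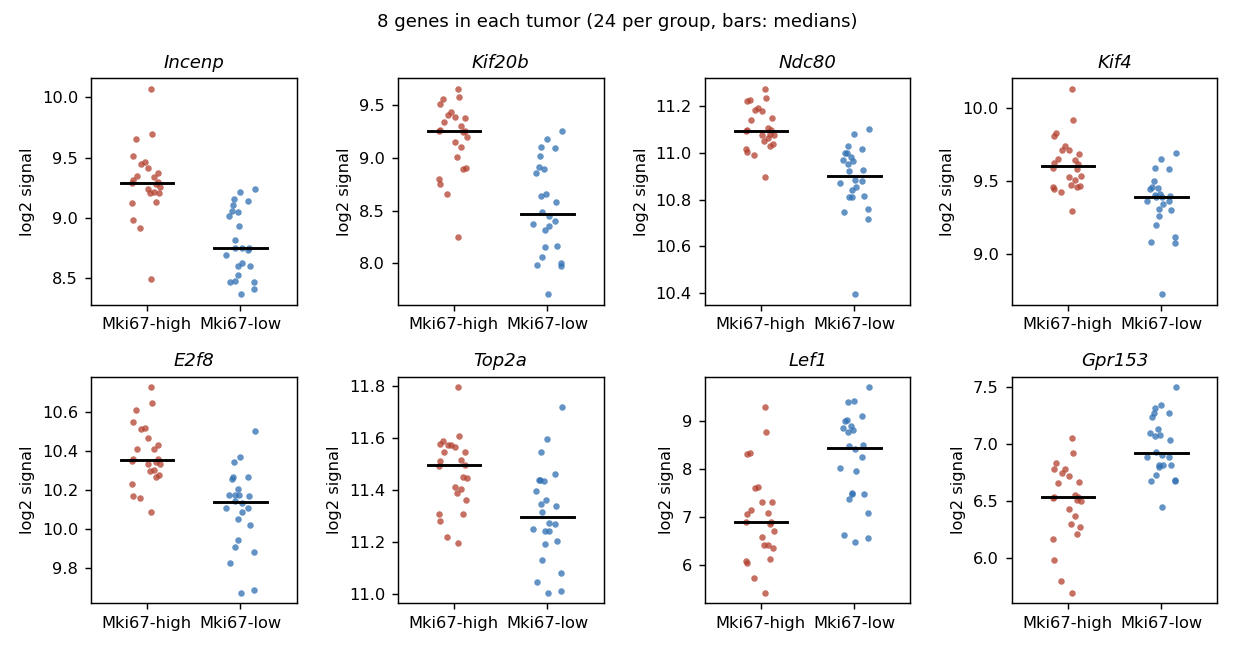
Log2 signal of 8 genes in each of 24 Mki67-high tumors (left in each panel) and 24 Mki67-low tumors (right), as points, with bars at the medians. Incenp, Kif20b, Ndc80, Kif4 and E2f8 rose, Lef1 and Gpr153 fell, Top2a did not pass the test (adjusted p = 0.115), and the groups overlap for every gene shown.

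Of the 27 gene lists examined, the mitosis and spindle checkpoint list held the most rises. Of 80 members tested 10 rose (12.5%, against 0.448% of all probe sets) and none fell, and 79 of 80 had a difference above 0, with a median of 0.15 against −0.01 over all probe sets. With a Dsp limit of 6.5, 5 rose, beside 22 rises over all probe sets, and without the 2 most extreme tumors at each end 5, beside 41. With 12 tumors at each end none rose, beside 1 over all probe sets, and with the slope over 99 tumors 37, beside 594. Those that passed included Incenp, the scaffold of the chromosomal passenger complex, and Aurkb, its kinase. Aurkb was at the edge of the threshold (limma adjusted p = 0.0499) and passed in 14 of 28 alternative settings. Ndc80 and Cenpe, a microtubule-binding protein and a motor of the kinetochore, rose too, as did the kinesins Kif4, Kif11, Kif15, Kif20b and Kif23 and the spindle protein Spag5. Incenp ran from 8.49 through 9.29 to 10.07 in Mki67-high and from 8.37 through 8.75 to 9.24 in Mki67-low tumors, a difference of 0.51 ± 0.08 (adjusted p = 0.00157). Ndc80 ran from 10.90 through 11.09 to 11.27 in Mki67-high and from 10.39 through 10.90 to 11.10 in Mki67-low tumors. In 23 of 24 Mki67-high tumors Ndc80 was above the Mki67-low median, and its difference of 0.22 ± 0.04 (adjusted p = 0.00165) was small beside that of Kif20b. Kif11, the motor that separates the spindle poles, ran from 10.61 through 11.39 to 11.56 in Mki67-high and from 10.31 through 10.85 to 11.39 in Mki67-low tumors, and rose by 0.42 ± 0.08 (adjusted p = 0.0024). The other 6 differed by 0.23 (Aurkb) to 0.29 (Kif15).

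Other well known mitosis genes lay near 0 or did not pass. Top2a, the topoisomerase of dividing cells, had medians of 11.49 in Mki67-high and 11.29 in Mki67-low tumors, with a difference of 0.16 ± 0.05 (adjusted p = 0.115). Aurka, the kinase of the spindle pole, differed by 0.03 ± 0.07 (adjusted p = 0.914), and Cdk1, the kinase that starts mitosis, by 0.01 (adjusted p = 0.912). Zwint, a kinetochore protein, was the one member below 0, at −0.14 (adjusted p = 0.301). Mean levels over the list ran from 9.87 through 10.11 to 10.19 in Mki67-high tumors and from 9.52 through 9.91 to 10.03 in Mki67-low tumors. Tumors ranked by Top2a, or by the mean of this list, gave other groups: 11 of 24 Mki67-high and 13 of 24 Mki67-low tumors were also among the 24 highest and 24 lowest by Top2a, and 13 of 24 of each among those by the list. Those rankings called 2549 and 1094 probe sets, of which 40 and 50 were among the 121. Outside chromosome 19 they called 7.96% and 3.57% of probe sets as rises. Members of the mitosis list were not tested where that list ranked the tumors, so its 10 calls could not be among the 50.

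**Figure D3:**
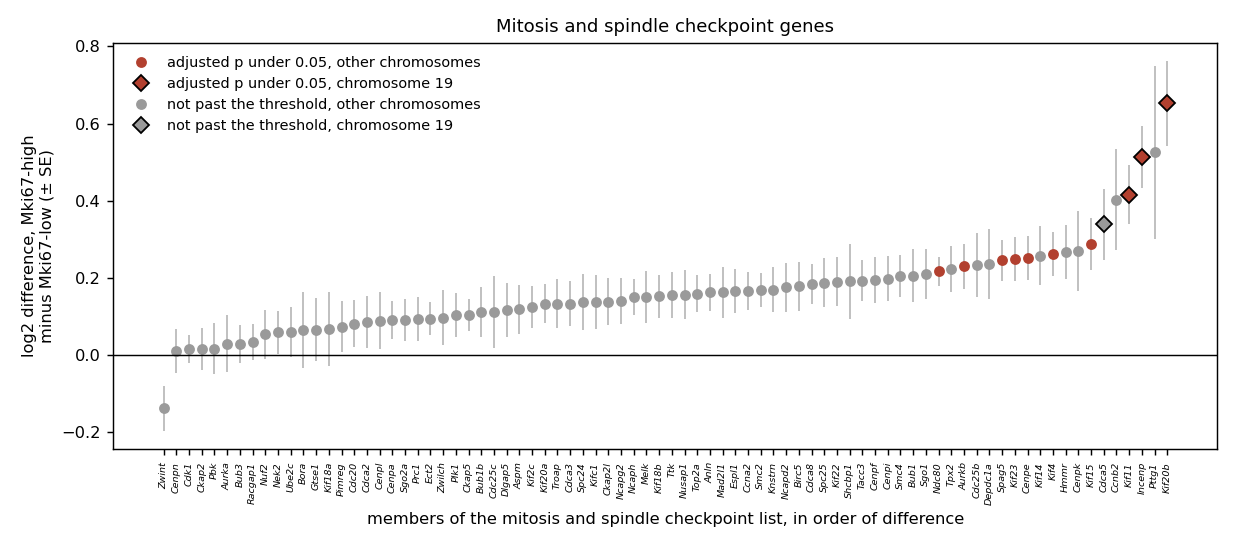
Log2 difference, Mki67-high minus Mki67-low, with its standard error for each of 80 mitosis and spindle checkpoint genes, in order of size. Red points passed an adjusted p of 0.05, diamonds are genes on chromosome 19, and 79 of 80 points lie above 0, with Kif20b at 0.65 the highest and Zwint at −0.14 the lowest.

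Promoters of 5 of the 8 called mitosis genes with an entry are shown, 4 that hold the late cell cycle element CHR and Cenpe, the one that does not. Sequences come from RefSeq (GRCm38.p6) and span 300 bases, most of them before the annotated start, and capitals mark CHR (TTTGAA) and CCAAT on either strand, none of which overlap one another in these 5.
Kif20b, chr19:34922108-34922407, plus strand: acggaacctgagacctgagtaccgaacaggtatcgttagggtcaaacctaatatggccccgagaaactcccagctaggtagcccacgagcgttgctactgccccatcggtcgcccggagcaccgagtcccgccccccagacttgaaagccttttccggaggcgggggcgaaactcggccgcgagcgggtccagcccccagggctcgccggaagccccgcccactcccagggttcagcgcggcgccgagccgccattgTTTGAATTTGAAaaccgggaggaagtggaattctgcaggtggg
Ndc80, chr17:71526808-71527107, minus strand: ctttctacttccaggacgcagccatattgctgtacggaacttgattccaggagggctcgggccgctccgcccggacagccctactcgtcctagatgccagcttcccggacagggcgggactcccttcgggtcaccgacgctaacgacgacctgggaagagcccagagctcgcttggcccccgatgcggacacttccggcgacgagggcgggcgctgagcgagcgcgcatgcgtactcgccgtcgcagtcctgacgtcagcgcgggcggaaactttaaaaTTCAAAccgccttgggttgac
Kif11, chr19:37376132-37376431, plus strand: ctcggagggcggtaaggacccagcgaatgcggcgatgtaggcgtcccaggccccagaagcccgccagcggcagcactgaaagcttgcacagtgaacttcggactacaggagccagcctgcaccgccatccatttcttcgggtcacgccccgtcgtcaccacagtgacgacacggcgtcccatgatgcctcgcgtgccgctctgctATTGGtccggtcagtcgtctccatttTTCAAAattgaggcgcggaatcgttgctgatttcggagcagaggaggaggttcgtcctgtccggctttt
Kif4, chrX:100625815-100626114, plus strand: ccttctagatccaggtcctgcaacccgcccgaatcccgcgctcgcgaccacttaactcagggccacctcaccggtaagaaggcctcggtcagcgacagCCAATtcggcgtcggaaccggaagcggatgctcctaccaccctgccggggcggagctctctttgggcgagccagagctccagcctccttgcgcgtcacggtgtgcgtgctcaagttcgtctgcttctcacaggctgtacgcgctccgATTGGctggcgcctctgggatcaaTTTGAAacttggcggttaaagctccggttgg
Cenpe, chr3:135212313-135212612, plus strand: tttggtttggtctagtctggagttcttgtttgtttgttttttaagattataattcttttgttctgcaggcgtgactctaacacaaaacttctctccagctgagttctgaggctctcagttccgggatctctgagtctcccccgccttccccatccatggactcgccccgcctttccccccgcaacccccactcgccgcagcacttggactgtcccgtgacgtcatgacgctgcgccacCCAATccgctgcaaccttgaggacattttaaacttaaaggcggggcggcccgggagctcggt
CHR lies near the 3′ end of the window in the other 4, repeated without a gap in Kif20b, and CCAAT letters stand upstream of it in Kif11 and Kif4. Among 65 mitosis list promoters CHR was in 44 (67.7%) and CCAAT in 48 (73.8%), and both were in 37 (56.9%), against 18.1%, 37.9% and 7.12% of 27025 promoters of the same length. Of 8 called mitosis genes with a promoter in the table, 7 held CHR and 5 held CCAAT. Among 39 DNA replication promoters CHR was in 6 (15.4%), while the E2F letters TTTCCCGC and TTTGGCGC were in 6 (15.4%) each, against 1.11% and 0.537% of all promoters. The 31 called rises on chromosome 19 held CHR in 7 (22.6%), and the 49 on other chromosomes and outside the mitosis list in 8 (16.3%). A match is a description of letters and was not tested as a site.

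DNA replication genes moved less than mitosis genes. None of 48 members passed the test, against 0.448% of all probe sets that rose. Of these members 38 had a difference above 0, against 45.4% of all probe sets, with a median of 0.04. In limma 11 had an unadjusted p under 0.05, against 12.7% of all probe sets. Those with the smallest p were Pola2, a subunit of the primase complex, at 0.26 ± 0.09 (adjusted p = 0.153), and Fen1, the flap endonuclease, at 0.28 ± 0.09 (adjusted p = 0.158), both on chromosome 19. Pole, the leading strand polymerase, and Mcm10, a replication initiation factor, each differed by 0.14 (adjusted p = 0.169 and 0.222). Of 27 replication-dependent histone genes none passed, with a median of 0.03. In homologous recombination and replication stress Brca1 alone passed, of 29 members (3.45%, against 0.448% of all probe sets that rose). It ran from 10.01 through 10.17 to 10.36 in Mki67-high tumors and from 9.40 through 9.88 to 10.51 in Mki67-low tumors, with every Mki67-high tumor above the Mki67-low median and a difference of 0.23 ± 0.05 (adjusted p = 0.0131). Ranked by Top2a 16 of these 29 members rose, as did 16 of the 48 DNA replication genes, beside 1698 rises over all probe sets.

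Among the regulators of the cell cycle E2f8, a repressor made in S phase, passed. It was the only one of 29 E2F, pocket protein and MuvB factors to do so (3.45%, against 0.448% of all probe sets that rose). It ran from 10.08 through 10.35 to 10.73 in Mki67-high and from 9.67 through 10.14 to 10.50 in Mki67-low tumors, and rose by 0.28 ± 0.05 (adjusted p = 0.00415). Its partner repressor E2f7 differed by 0.24 ± 0.07 (adjusted p = 0.0738) and the activator E2f2 by 0.27 ± 0.08 (adjusted p = 0.0955). Foxm1, which switches on mitosis genes, differed by 0.17 ± 0.06 (adjusted p = 0.132), Mybl2, which encodes B-Myb, by 0.06 ± 0.06, E2f1 by 0.08 ± 0.05 and Rb1 by 0.04 ± 0.06, none of which passed. Of 24 CDK inhibitors and exit genes Mxi1 alone passed (4.17%, against 0.448% of all probe sets that rose). An antagonist of Myc on chromosome 19, it rose by 0.46 ± 0.09 (limma adjusted p = 0.0092) in its probe set of highest mean. Of its 2 tested probe sets the other did not pass. Cdkn1a and Cdkn1c, which encode the inhibitors p21 and p57, differed by 0.05 ± 0.15 and 0.07 ± 0.13 and did not pass. Btg1, an antiproliferative gene, stood at −0.30 ± 0.08 (adjusted p = 0.0604). Of 24 Polycomb, methylation and chromatin genes Asxl1 alone passed (4.17%, against 0.448% of all probe sets that rose). A partner of the BAP1 deubiquitinase, it rose by 0.21 ± 0.04 (limma adjusted p = 0.00366). Ezh2, the methyltransferase of Polycomb, differed by 0.08 ± 0.04 (adjusted p = 0.457). Mycn, a driver of many neuroendocrine tumors, differed by 0.17 ± 0.14 (adjusted p = 0.647), and none of 29 Myc family and ribosome biogenesis genes passed.

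Position on the chromosomes was not used to choose the tumors, and it set the rises apart. Of the 98 probe sets that rose, 34 lie on chromosome 19, which holds 688 of those tested (4.94% rose), against 64 of 21194 (0.302%) elsewhere. The number on chromosome 19 was 6 with a Dsp limit of 6.5 (0.872%, against 0.0755% elsewhere). Without the 2 most extreme tumors at each end it was 16 (2.33%, against 0.118%). It was 10 with 49 tumors at each end (1.45%, against 0.16%), 17 with 33 (2.47%, against 0.297%) and 0 with 12 (0%, against 0.00472%). The next highest share was on the X chromosome, with 10 rises (1.21%), among them Smc1a, a cohesin subunit, and Kif4. Over all tested probe sets of chromosome 19 the median difference was 0.09, with 69.5% above 0, whereas the medians of the other 19 chromosomes lay between −0.04 and 0.02. Rises came from the whole chromosome, with 12, 11 and 11 in the first, middle and last of 3 equal runs of its genes in order, and medians of 0.15, 0.03 and 0.09. No probe set of chromosome 19 fell, and falls were rare elsewhere too (23 of 21194), so their absence does not set it apart. Besides Kif20b, Incenp, Kif11 and Cep55 the rises on chromosome 19 included Smc3, another cohesin subunit, at 0.40 ± 0.08 (limma adjusted p = 0.00514). Twnk, the mitochondrial helicase, rose by 0.40 ± 0.07 (adjusted p = 0.00163), and Eif3a, a translation initiation factor, by 0.41 ± 0.08 (adjusted p = 0.00768). These genes have varied roles, among them splicing (Sf1, Sf3b2), folding (Stip1) and proline synthesis (Aldh18a1). Sf3b2 has 2 tested probe sets, of which only the one counted here passed.

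A level of chromosome 19 was taken for each tumor as the median over 325 of its probe sets with a mean of at least 7, each set to its own median over the 99 tumors. This level was above 0 in 18 of 24 Mki67-high tumors and in 9 of 24 Mki67-low tumors. It ran from −0.30 through a median of 0.21 to 0.38 in Mki67-high tumors and from −0.41 through a median of −0.25 to 0.34 in Mki67-low tumors. The tumors fell on either side of a sparse stretch rather than around 1 value: of the 99 tumors with low Dsp, 45 were above 0.1, 44 under −0.1 and 10 between. Its SD over these tumors was 0.25, and that of each other chromosome was 0.13 or less. Among males with distant metastasis the level was above 0 in 14 of 18 Mki67-high and 5 of 19 Mki67-low tumors, and among those without in 4 of 6 Mki67-high and 4 of 5 Mki67-low tumors. Whether the difference itself differed with metastasis was not tested. Both kinds of tumor occurred in both groups, so that a high level of chromosome 19 and a high Mki67 did not always go together.

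Other tumors and other settings bear on this pattern. In the middle group, which the contrast did not use, the level averaged −0.02 ± 0.25 in the 25 tumors with the higher Mki67 and −0.06 ± 0.24 in the 25 with the lower Mki67 (SD), the tumor between them being left out. It was above 0.1 in 10 of the higher and 8 of the lower, and under −0.1 in 11 and 13, a difference much smaller than the spread. By mouse tag number, the level was above 0 in 3 of 3 Mki67-high and 0 of 2 Mki67-low tumors under 500, in 1 of 2 and 1 of 5 from 500 to under 800, in 3 of 7 and 4 of 10 from 800 to under 1000, and in 11 of 12 and 4 of 7 from 1000 on. With the tag range as a block 19 probe sets of chromosome 19 rose (2.76%, against 0.278% elsewhere). The value used to rank changed the pattern. Ranked by Top2a, the chromosome 19 median was −0.05, with 10 rises (1.45%, against 7.96% elsewhere). Falls in that ranking were 28 of 688 on chromosome 19 and 823 of 21193 elsewhere, a similar share. Ranked by the DNA replication list the chromosome 19 median was −0.06, with 1 rise (0.146%, against 4.00% elsewhere). There 5 of 685 fell, beside 175 of 21143 elsewhere. Ranked by the mitosis list, the median was 0.05, with 67 rises (9.80%, against 3.57% elsewhere). Falls were 5 of 684, beside 269 of 21117 elsewhere. With the chromosome 19 level as a covariate 6 of its genes rose (0.872%, against 0.495% elsewhere). In that fit 5 of 688 fell, beside 65 of 21194 elsewhere. That level is the median of probe sets of the same chromosome, so fewer rises there were built into this fit and say nothing further. Incenp (0.30, adjusted p = 0.00725), Kif20b (0.37, adjusted p = 0.0167) and Kif11 (0.23, adjusted p = 0.0466) still passed. The calls of Mxi1 (0.27, adjusted p = 0.107), Cep55 (0.28, adjusted p = 0.129), Fkbp2 (0.26, adjusted p = 0.167) and Vldlr (0.34, adjusted p = 0.259) were lost, as on other chromosomes were those of Aurkb, Gabrq and Pbx3 among others. Of the 80 mitosis genes 16 rose in that fit, beside 111 rises over all probe sets. In the mitosis list 3 of the 4 members on chromosome 19 rose, with a median of 0.46, and 7 of the 76 elsewhere, with a median of 0.15. DNA copy number was not measured in these files, and its part in these levels was not tested.

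**Figure D4:**
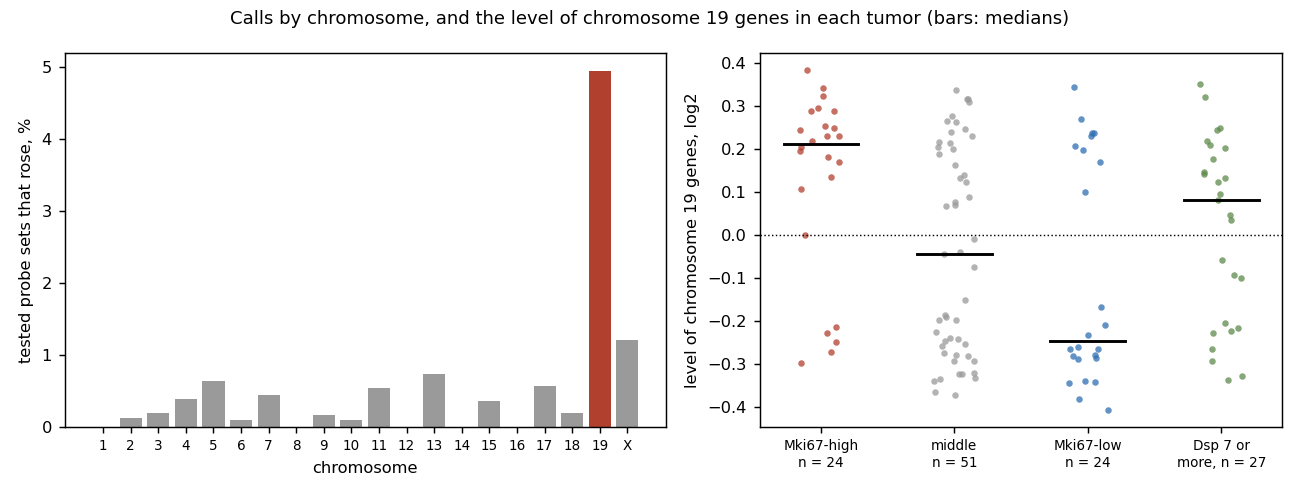
Left, percentage of tested probe sets on each chromosome that rose in Mki67-high tumors, 4.94% for chromosome 19 and at most 1.21% for any other. Right, median log2 level of 325 chromosome 19 probe sets, each relative to its median over 99 tumors, in each tumor by group, with bars at the group medians of 0.21 in Mki67-high and −0.25 in Mki67-low tumors.

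The 15 genes whose levels followed Mki67 most closely over the 99 tumors were picked by their correlation with the value that ranked the tumors. Pearson's r over 99 tumors, given as a description, was 0.65 for Smc1a, 0.63 for Spag5 and for Ndc80, 0.61 for Hnrnpul1, an RNA-binding protein, 0.59 for Kif4 and for Cdk5rap2, a centrosome protein, and 0.57 for Hirip3, a histone-binding protein. Incenp, Tacc3, Cenpe, Kif20b and Kif11 followed at 0.53 to 0.56, as did the splicing factors Srrm1 and Srrm2 and the zinc finger gene Zfp382. In the 27 tumors with a Dsp of 7 or more, r was above 0.7 for 13 of the 15 and −0.55 for Srrm1 and −0.33 for Srrm2, so that the splicing factors parted from the mitosis genes there. The 99 values of each gene come from arrays normalized together. The lowest r were those of Spryd4 (−0.57), Gpr153 (−0.53), Mpzl1 (−0.51), Prdm11 (−0.48) and Mettl24 (−0.48).

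Genes of other cell types were compared for the whole of each list. None of the 22 macrophage and myeloid genes passed the test, and all 22 were below 0, with a median of −0.22 against −0.01 over all probe sets. The median was −0.05 without the 2 most extreme tumors at each end, −0.04 ranked by Top2a and −0.12 with a Dsp limit of 6.5. Their mean level ran from 6.32 through 6.89 to 8.38 in Mki67-high tumors and from 6.53 through 7.11 to 9.26 in Mki67-low tumors. Tyrobp, an adaptor of myeloid receptors, was at −0.39 ± 0.17 (adjusted p = 0.32), and Lyz2, lysozyme, at −0.35 ± 0.17 (adjusted p = 0.371). All 15 antigen presentation genes (median −0.13) and all 8 B cell genes (median −0.06) were likewise below 0 and none passed. Over all probe sets 45.4% were above 0. The B cell genes had low signals, with a mean level whose medians were 5.00 in Mki67-high and 5.04 in Mki67-low tumors. Of 21 interferon response genes 19 were below 0 (median −0.15), the highest of the list being Ifit2 on chromosome 19 at 0.44 ± 0.18 (limma adjusted p = 0.262). Psmb10, an immunoproteasome subunit, came nearest to the threshold at −0.28 ± 0.07 (adjusted p = 0.0515). With the macrophage list mean as a covariate 87 probe sets passed, 75 of them among the 121, and the part of these cells in the other rises and falls was not tested further.

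The epithelial and stromal lists also held no call. Epithelial junction and keratin genes had a median of 0.09 over 28 members, which turned to −0.12 ranked by Top2a, and Dsg2, a desmosomal cadherin, ranged from 4.23 to 9.60 in Mki67-high and from 4.38 to 8.13 in Mki67-low tumors (difference 0.98 ± 0.40, adjusted p = 0.28). The 6 seminal vesicle secretory genes had a median of 0.41, and none passed. The median turned to −0.10 with a Dsp limit of 6.5 and with the ranking by the DNA replication list, and to −0.16 ranked by Top2a. Svs6, a seminal vesicle secretory protein, had a median of 4.35 and a highest value of 10.89 in Mki67-high tumors, and a median of 4.12 and a highest value of 11.39 in Mki67-low tumors. Of 23 fibroblast and collagen genes 17 were below 0 (median −0.06), but the median was 0.06, with 16 above 0, without the 2 most extreme tumors at each end. Pdgfra, a receptor of mesenchymal cells, was at −1.09 ± 0.36 (adjusted p = 0.158). Of 27 hypoxia and glycolysis genes 23 were above 0, with a median of 0.15, and none passed. Hk2, a hexokinase, was at 0.57 ± 0.17 (adjusted p = 0.104), and Slc2a1, the glucose transporter GLUT1, at 0.52 ± 0.16 (adjusted p = 0.115). Ranking by Top2a turned this median to −0.06, and ranking by the mitosis list to −0.04. The neuroendocrine factor Neurod4 varied from 5.67 to 10.50 in Mki67-high and from 4.61 to 9.37 in Mki67-low tumors, with a difference of 0.56 ± 0.38 (adjusted p = 0.56). Of the 27 lists, 22 held no call.

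**Figure D5:**
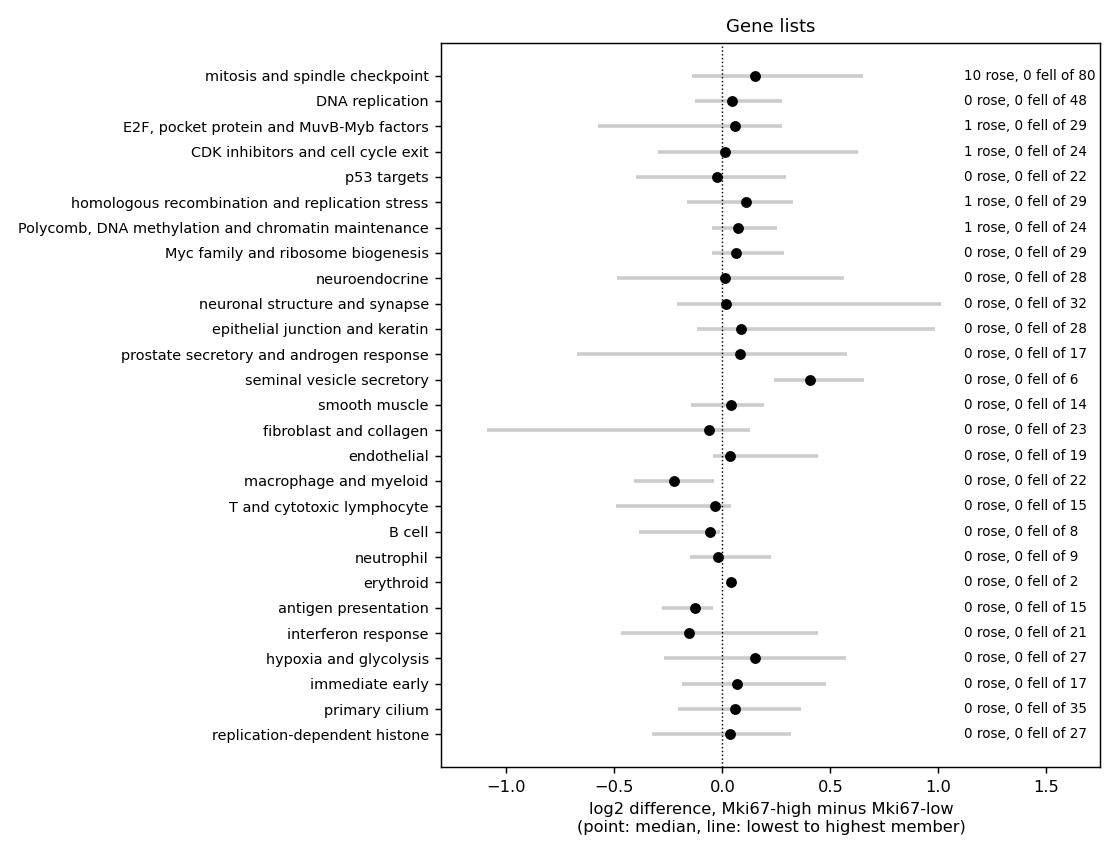
Median log2 difference, Mki67-high minus Mki67-low (points), and range from the lowest to the highest member (lines) for 27 gene lists, with the number of members that rose and fell. The mitosis and spindle checkpoint list has 10 rises of 80, and the macrophage and myeloid list lies wholly below 0 with no call.

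Slopes on Mki67 were also fitted in tumors that the contrast did not use, although Mki67 had ranked those of the middle group too. In the middle group no probe set had a slope on Mki67 that passed (0% of 21882, limma), and 966 had an unadjusted p under 0.05; with the range of mouse tag number as a block the counts were 0 and 1372. Mki67 spanned only 11.63 to 11.78 there. Of the 121 probe sets called in the contrast, 105 had a middle-group slope of the same sign, against 59.3% of all probe sets tested. Among the 98 that rose, 11 had a slope above 0 with an unadjusted p under 0.05. Over all probe sets 4.41% had such a p in either direction. Slopes were above 0 for 69 of 80 mitosis genes, with a median of 0.52 log2 units per log2 unit of Mki67, against 49.3% and −0.02 over all probe sets. In 30 of 48 DNA replication genes they were above 0, with a median of 0.12.

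In the 27 tumors with a Dsp of 7 or more, where Mki67 spanned 9.74 to 11.84, 8840 probe sets (40.4%) followed Mki67, 4664 (21.3%) rising and 4176 (19.1%) falling with it. There 79 of 80 mitosis genes and 46 of 48 DNA replication genes rose, with median slopes of 1.38 and 0.81, as did 24 of 28 neuroendocrine genes, while 21 of 28 epithelial genes fell. Of the 98 rises of the contrast, 54 also rose with Mki67 in these tumors and 11 fell, and of the 23 falls 3 fell and 6 rose. With the mean of the epithelial list as a covariate 1934 probe sets passed. The level of chromosome 19 was above 0 in 16 of 27 of these tumors.

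Traits that played no part in the ranking did not separate the groups. Primary tumor burden ranged from 0.25 g through a median of 5.01 g to 14 g in males with Mki67-high tumors and from 0.8 g through 4.90 g to 11.4 g in those with Mki67-low tumors. The means were 5.83 ± 3.36 g and 5.02 ± 2.69 g (SD, n = 24 each), a difference of 0.80 g (two-sided permutation test, p = 0.366). Over all 99 tumors Pearson's r between burden and Mki67 was 0.109 (permutation p = 0.282) and Spearman's rho 0.114 (permutation p = 0.26), and r was 0.119 without the 2 tumors farthest from the median burden. Within ranges of mouse tag number, r was −0.07 under 500 (n = 11), 0.242 from 500 to under 800 (n = 13), 0.204 from 800 to under 1000 (n = 34) and 0.169 from 1000 on (n = 41). Distant metastasis was recorded in 18 of 24 males with Mki67-high tumors and 19 of 24 with Mki67-low tumors (difference −4.17 percentage points, two-sided Fisher's exact test, p = 1). After Benjamini-Hochberg adjustment over these 3 relations p was 0.549, 0.549 and 1 for the burden difference, its correlation and metastasis. Whether the contrast itself differed between males with and without distant metastasis was tested by interaction, and no probe set passed (0%, limma), with 3.75% at an unadjusted p under 0.05.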

How the data were processed

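RNA of 126 primary tumors had been hybridised, each to its own array. The values deposited by the authors are log2 signals from RMA in Partek, which corrects background, equalises the arrays' quantiles and sums up each probe set. They were used as they stood, save in alternatives that scaled them again. The number of arrays limits the precision. Of 41345 probe sets, 23521 had 1 gene symbol in the platform annotation, 1820 several and 16004 none. Only those with 1 were tested, if their mean reached the 10th percentile over probe sets, and Mki67 was left out. Lists used the probe set of highest mean where a gene had more than 1.

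The members, the gene lists and the tests were chosen with earlier results of these data known. Contrasts, slopes on Mki67 and the interaction used lmFit and eBayes of limma 3.58.1, run in R 4.3.3, with Benjamini-Hochberg adjustment over all probe sets tested and a threshold of 0.05. Burden was tested by permutation of 100000 resamples. Gene lists (27, beside Mki67) are given as counts and medians. Of 711 list entries 657 matched. Chromosomes came from RefSeq genes of GRCm38.p6 through the gene identifiers, for 21699 of the probe sets tested. The genes named are the 10 largest rises and falls among the calls, members of each list with the smallest p, those most like Mki67 and a set of cell cycle and neuroendocrine genes. Further called genes on chromosome 19, Cdk1, Zwint and other called list members were named after their values were seen. The mouse tag number came from the labels, and what it marks is not stated. Each male is a separate animal measured once, so p-values rest on the spread between animals together with that of the assay. The fits were tested on simulated data. Tables and figures used Python 3.11.15, numpy 2.4.6, pandas 2.3.3, scipy 1.17.1 and matplotlib 3.10.9.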

Additional observations from a re-analysis of the deposited data

How the results depend on the processing

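Of 121 calls in the contrast of Mki67-high with Mki67-low tumors, quantile normalization again gave 79, 49 tumors at each end 48, 12 at each end 1, a Dsp limit of 6.5 gave 22, leaving out the 2 most extreme tumors at each end 44, the slope over 99 tumors 948 and 3 groups in 1 fit 334. Ranking by Top2a gave 2549. Chosen after seeing the data, ranking by the mitosis list gave 1094 and by the DNA replication list 1026, each without tests of its own members. Leaving chromosome 19 out of the test, chosen likewise, gave 57. The chromosome 19 level as a covariate, chosen likewise, gave 181, of which 56 were among the 121. Leaving out arrays whose mean correlation with the others was under 0.96, also chosen after seeing the data, gave 85. The total stayed within 1.5 times in the other alternatives, though falls numbered 12 of 115 with centred arrays and 14 of 94 with 33 tumors at each end. In tumors with a Dsp of 7 or more the epithelial covariate left 1934 of 8840 calls. Leaving chromosome 19 out took away its 34 rises by construction, and the cause of the remaining shifts was not tested.

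The metastasis difference of −4.17 percentage points was 0 with a Dsp limit of 6.5 or without tumors under 1 g, and 2.58 within ranges of tag number. The correlation of Mki67 with burden was −0.0749 under tag 500. Ranked by Top2a, the log2 difference was −0.0214 for Vldlr, 0.138 for Mettl24 and −0.068 for Mxi1, and ranked by the DNA replication list −0.0215 for Gabrq, −0.371 for Vldlr, −0.0585 for Mxi1 and −0.0472 for Incenp. Of the 33 calls named for their size or as list members these 5 changed sign in an alternative. Other named calls were not followed across alternatives. Burden kept its direction and did not pass in any alternative. Its difference of 0.803 g became 1.27 g within ranges of tag number (permutation test, p = 0.1). The tumor of male N1202 had a Dsp of 7 or more, so leaving it out could not change the contrast. In the slope over those tumors leaving it out, an alternative added after seeing the data, gave 8920 calls.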
